A study of Mus musculus with 6 samples.

Results

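The chymotrypsin and elastase genes of the mouse pancreas are the 7 genes Ctrb1, Ctrl, Ctrc, Cela1, Cela2a, Cela3a and Cela3b. They were chosen by gene symbol, and each had 1 row among the 23282 rows of the count tables. The samples were primary acinar cells, the exocrine cells of the pancreas, from C57BL/6J mice. The 3 control libraries carry the wild-type genotype, and the 3 cKO libraries carry the ERRgamma -/- genotype, described as a conditional knock-out of estrogen-related receptor gamma, a nuclear receptor encoded by Esrrg. All cells were kept in Waymouth's medium with serum, antibiotics, a trypsin inhibitor and human epidermal growth factor. The labels do not name the Cre driver, the deleted exons, the age or sex of the mice, the time in culture, or whether libraries of a group came from separate mice, so the p-values speak of library-to-library spread, part of which may be technical.

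Chymotrypsins and pancreatic elastases are serine proteases that acinar cells make as inactive zymogens and store in granules. Trypsin activates them in the gut, where chymotrypsins cut proteins next to large hydrophobic residues and most elastases cut next to small ones. In acinar cells, their genes are among the classical targets of PTF1, a complex of the acinar factors Ptf1a and Rbpjl with an E-protein, which binds a DNA motif called an E-box together with a second site nearby. Control and cKO were compared to ask how these genes differ where the receptor gene is labelled as deleted.

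Promoter sequences were found for 6 of the 7 genes, all but Ctrc, in the RefSeq table of GRCm38.p6, and 4 are shown because they span the range seen within this gene set. Each is the 250 bases before the annotated start, 5′ to 3′ on the strand of the gene. Capitals mark CACCTG, taken here as the E-box letters of PTF1, or its reverse complement CAGGTG. E-boxes with other middle letters are not marked.
Cela3a (chr4:137409792-137410041, minus strand): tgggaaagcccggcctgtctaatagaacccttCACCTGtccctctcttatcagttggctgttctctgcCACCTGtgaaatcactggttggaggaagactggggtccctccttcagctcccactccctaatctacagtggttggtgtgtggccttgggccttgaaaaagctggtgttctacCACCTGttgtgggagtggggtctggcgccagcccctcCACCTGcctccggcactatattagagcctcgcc
Cela3b (chr4:137430521-137430770, minus strand): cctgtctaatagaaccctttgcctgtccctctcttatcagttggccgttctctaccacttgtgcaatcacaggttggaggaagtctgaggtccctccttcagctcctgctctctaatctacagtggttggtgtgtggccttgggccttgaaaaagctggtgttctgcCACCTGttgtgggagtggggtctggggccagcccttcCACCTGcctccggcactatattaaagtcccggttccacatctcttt
Ctrl (chr8:105933863-105934112, minus strand): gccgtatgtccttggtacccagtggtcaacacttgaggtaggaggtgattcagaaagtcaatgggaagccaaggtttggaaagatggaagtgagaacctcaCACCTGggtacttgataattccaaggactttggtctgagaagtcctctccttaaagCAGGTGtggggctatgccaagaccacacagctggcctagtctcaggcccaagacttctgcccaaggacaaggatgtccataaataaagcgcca
Ctrb1 (chr8:111691011-111691260, minus strand): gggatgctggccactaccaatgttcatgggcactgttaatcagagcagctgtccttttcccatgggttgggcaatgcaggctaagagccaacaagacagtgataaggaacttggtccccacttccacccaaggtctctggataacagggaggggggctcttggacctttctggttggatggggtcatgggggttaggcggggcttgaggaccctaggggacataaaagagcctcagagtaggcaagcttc

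Cela3a held 4 such E-boxes, Cela3b and Ctrl 2 each, Cela1 and Cela2a 1 each, and Ctrb1 0. The motif occurred at least once in 17.2% of all 32851 promoter windows of this length, 2 or more times in 2.06%, and 4 or more times in 0.0426%. The windows of the tandem neighbours Cela3a and Cela3b were 83.3% identical. The E-boxes nearest the start lay 70 to 65 and 33 to 28 bases before it in Cela3a, and 83 to 78 and 46 to 41 in Cela3b. Those of Ctrl lay 149 to 144 and 93 to 88 bases before the start. The letters TTTCCCA, the companion letters of the PTF1 site, were found once each in Cela2a, Cela3a and Ctrb1, and in 6.82% of all windows. TNAAGGTCA, the letters of an ERR response element, had 0 matches in the 6 windows and at least 1 in 1.14% of all windows. TCAAGGNCA, the site letters of the acinar receptor NR5A2, which overlaps the ERR letters, also had 0 matches, against 1.39%. The CRE letters TGACGTCA had 0 matches, against 1.55%. Any E-box, CANNTG, which includes CACCTG, occurred 1 to 5 times in each of the 6 windows and in 66.2% of all windows. All motifs were read on both strands, and a match is a description of letters, not of binding.

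Some facts of the whole series touch these genes. Library totals were 23.0 to 25.2 M counts in control (M, mega) and 15.2 to 17.0 M in cKO. The targeted gene Esrrg had 0 counts in all 3 controls, and its counts in cKO were 0 (replicate 1), 9 (replicate 2) and 1 (replicate 3). With 0 counts in every control a loss could not be seen, and its tag may also fall in sequence that the deletion leaves in place. The genotype is therefore not checked by Esrrg counts. Digestive enzymes filled most of the control libraries: 32 genes, the 7 here included, took 78.3% to 80.5% of control counts and 20.0%, 51.8% and 26.8% of those of cKO replicates 1, 2 and 3. The scale therefore decides how a change reads. The TMM scale (trimmed mean of M-values) centres most genes on no difference and gave effective library sizes of 7.97 ± 0.491 M in control and 50.9 ± 15.3 M in cKO (SD, n = 3 each). On it the median log2 fold change of all 13132 tested genes was 0.10, and on plain library totals it was 3.36. Levels below are given as percent of library, which needs no scaling, and as CPM, which is counts divided by the effective size in M. QuantSeq reads 1 tag near the 3' end of a transcript, so counts were not divided by gene length.

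All 7 genes were lower in cKO on the TMM scale. By edgeR's quasi-likelihood test with Benjamini-Hochberg adjustment over all tested genes, 7 of 7 fell, where 20.7% of all tested genes were called lower, 24% higher and 44.7% in either direction. Their log2 fold changes ran from -4.53 to -3.23 with a median of -3.68. For 7 of 7 genes every cKO library lay below every control library, as it did for 25.4% of tested genes. Ordered from the most negative fold change, the members took places 38 (Ctrc) to 123 (Cela3b) of 13132. On library totals the picture split: Ctrc, Ctrl and Cela2a were called lower, 3 of 7 genes, where 0.404% of tested genes were lower and 96.4% higher. Ctrb1, Cela1, Cela3a and Cela3b did not pass on that scale. Less RNA of an acinar gene per cell and fewer acinar cells cannot be told apart in such bulk samples.

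**Figure D1:**
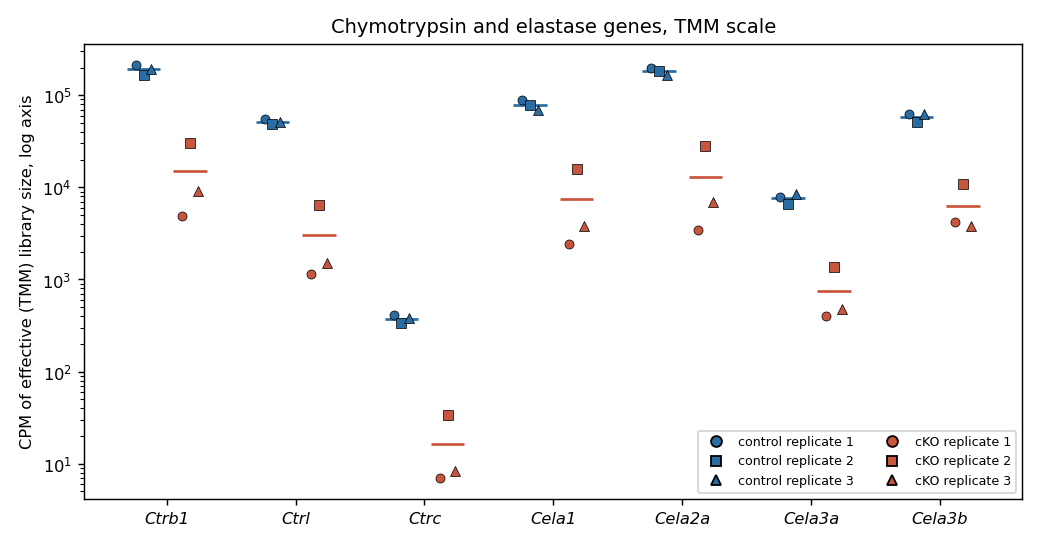
Level of each gene in each library as CPM of the effective, TMM-scaled library size on a log axis; circles, squares and triangles are replicates 1, 2 and 3 and bars are group means. All 3 cKO libraries lie below all 3 control libraries for each gene, and cKO replicate 2 is the highest of the cKO libraries.

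The chymotrypsinogen gene Ctrb1 (chromosome 8, 111686519 to 111691010, minus strand, GRCm38) had the highest mean share of the set in both groups by the counts as deposited. Cela2a was above it in control replicate 2, and in both group means once the Casp9 counts discussed below were added to Cela2a. Ctrb1 made up 6.62%, 5.58% and 6.58% of counts in control replicates 1, 2 and 3, and 1.92%, 5.99% and 3.33% in cKO replicates 1, 2 and 3. Replicates 1 and 3 of cKO were well below the controls, while cKO replicate 2 lay inside the control range, so the groups overlap as a share of the library (exact 2-sided permutation p = 0.2). On the TMM scale it went from 190778 ± 24839 to 14877 ± 13811 CPM (SD, n = 3 each). That is a log2 fold change of -3.68 ± 0.92 (SE; edgeR adjusted p = 0.00452). Measured against library totals the fold change was -0.74 ± 0.46 (edgeR adjusted p = 0.114).

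Ctrl encodes a chymotrypsin-like protease and lies on the same chromosome (105932003 to 105933862, minus strand). Its share was 1.70%, 1.65% and 1.74% in control and 0.446%, 1.26% and 0.556% in cKO replicates 1, 2 and 3. Here every cKO library was below every control library even as a share of the whole (exact permutation p = 0.1, the smallest that 3 libraries against 3 can give). Only 0.518% of tested genes showed that order. The TMM level went from 51683 ± 3210 to 3026 ± 2950 CPM (SD, n = 3 each). The log2 fold change of Ctrl was -4.09 ± 0.78 on the TMM scale (edgeR adjusted p = 0.000576) and -1.17 ± 0.43 on library totals (edgeR adjusted p = 0.00724).

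Ctrc is the gene of chymotrypsin C, a protease known for degrading trypsinogen and so guarding against early trypsin activation. Its locus is annotated as protein coding by GENCODE M21 and as a transcribed pseudogene by RefSeq, whose reference is the C57BL/6J genome. It was by far the least abundant member, counted 3112, 2833 and 3005 times in control and 413, 1129 and 495 times in cKO replicates 1, 2 and 3. As a share these are 0.0127%, 0.0112% and 0.0131% against 0.00272%, 0.00666% and 0.00303%, with no overlap between the groups (exact permutation p = 0.1). Ctrc went from rank 99 to 122 of all rows in the control libraries to rank 1000 in cKO replicate 2 and ranks 4960 and 4414 in cKO replicates 1 and 3. It had the lowest log2 fold change of the 7 genes on both scales, -4.53 ± 0.77 on TMM (edgeR adjusted p = 0.00649) and -1.58 ± 0.38 on library totals (edgeR adjusted p = 3.50e-05).

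Exact Clopper-Pearson 95% intervals of these shares, which cover counting error only, reached at most 1.27% of the value to either side for the 6 abundant genes and 9.77% for Ctrc. The cKO replicates of each gene were spread more widely than that.

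**Figure D2:**
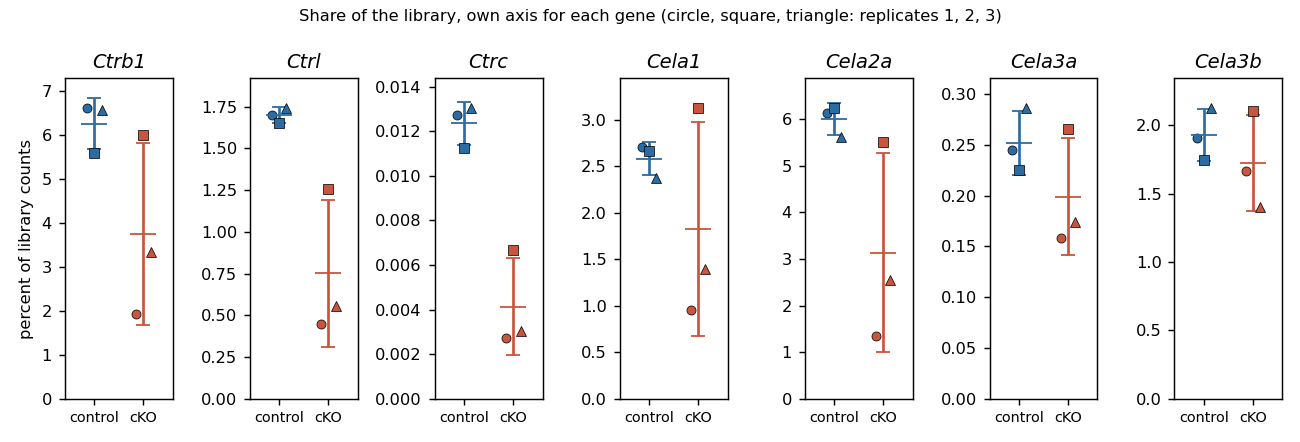
Percent of library counts for each gene in each library, with an axis from 0 of its own for each gene; bars are means and SD over 3 libraries. Ctrl, Ctrc and Cela2a have all cKO libraries below all control libraries, and for Cela1 cKO replicate 2 (3.13%) is above all controls.

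Among the elastases, Cela2a, the classical pancreatic elastase 2 (chromosome 4, 141814962 to 141826160, minus strand), had the highest mean share in both groups, though Cela3b was above it in cKO replicate 1. It took 6.13%, 6.24% and 5.62% of control libraries and 1.34%, 5.50% and 2.55% of cKO replicates 1, 2 and 3. All cKO values are below all controls, though cKO replicate 2 is so by a narrow margin (exact permutation p = 0.1). On the TMM scale the mean went from 182741 ± 17667 to 12830.3 ± 13344 CPM (SD, n = 3 each), a log2 fold change of -3.83 ± 0.95 (edgeR adjusted p = 0.00432). On library totals it was -0.94 ± 0.46 (edgeR adjusted p = 0.0446), close to the threshold.

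Cela1, pancreatic elastase 1 (chromosome 15, 100674421 to 100687921, minus strand), made up 2.70%, 2.66% and 2.37% of control and 0.953%, 3.13% and 1.39% of cKO libraries. The groups overlap, because cKO replicate 2 held a larger share than any control (exact permutation p = 0.4). Its TMM level went from 78669 ± 9231 to 7411 ± 7470.2 CPM (SD, n = 3 each), a log2 fold change of -3.41 ± 0.82 (edgeR adjusted p = 0.00330). On library totals the fold change was -0.50 ± 0.44 (0.264).

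Cela3b and Cela3a encode the elastase 3 proteases, also called proteinase E, and lie side by side on the minus strand of chromosome 4 (137420999 to 137430540 and 137401554 to 137409791). Cela3b took 1.91%, 1.75% and 2.13% of control and 1.67%, 2.10% and 1.40% of cKO counts, values that overlap (exact permutation p = 0.4). Cela3a took 0.245%, 0.225% and 0.287% of control and 0.158%, 0.265% and 0.174% of cKO counts, which also overlap (exact permutation p = 0.3). In cKO replicate 1, the library with the lowest enzyme share, Cela3b was at 86.3% and Cela3a at 62.6% of the control mean, against 36.9% for Cela1, 30.8% for Ctrb1 and 22.4% for Cela2a. In cKO replicate 3 they were at 72.8% and 69.0%, and in cKO replicate 2 at 108.9% and 105%, where Ctrb1 was at 95.8% and Cela2a at 91.6%. On the TMM scale Cela3b went from 58700.2 ± 5917 to 6277 ± 3878 CPM and Cela3a from 7662 ± 888 to 744 ± 530.2 CPM (SD, n = 3 each). Their log2 fold changes there were -3.23 ± 0.68 and -3.36 ± 0.51 (edgeR adjusted p = 0.00127 and 8.54e-05). Their fold changes on library totals were -0.16 ± 0.44 and -0.34 ± 0.39 (edgeR adjusted p = 0.713 and 0.386).

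**Figure D3:**
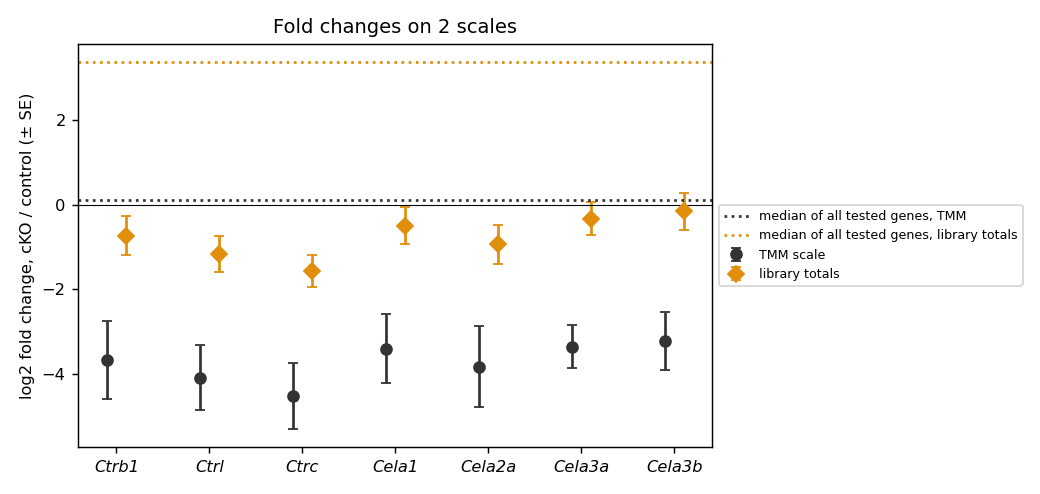
Log2 fold change (cKO over control, ± SE, edgeR) of each gene on the TMM scale and on library totals; dotted lines mark the median of all tested genes on each scale, 0.10 and 3.36. Ctrc is lowest and Cela3b highest on both scales, and every gene lies below the median of its scale.

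The 3 cKO libraries differed from each other in how much they kept. On the TMM scale cKO replicate 1 was at 1.85% (Ctrc) to 7.24% (Cela3b) of the control mean, cKO replicate 3 at 2.19% (Ctrc) to 6.52% (Cela3b), and cKO replicate 2 at 9.05% (Ctrc) to 20.3% (Cela1). The order replicate 2, replicate 3, replicate 1 held for each gene but Cela3b, for which replicate 1 was above replicate 3. Without cKO replicate 2 the fold changes were -3.85 for Cela3b, -4.11 for Cela3a, -4.65 for Cela1, -4.76 for Ctrb1, -5.13 for Cela2a, -5.27 for Ctrl and -5.61 for Ctrc. Summed, the 7 genes took 19.3%, 18.1% and 18.7% of control libraries and 6.49%, 18.3% and 9.41% of cKO libraries, so that cKO replicate 2 lies inside the control range. The means were 18.7% ± 0.602 and 11.4% ± 6.12 (SD, n = 3 each).

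Proportions within the gene set do not depend on how libraries are scaled. Cela3b took 9.88%, 9.66% and 11.4% of the summed counts of the 7 genes in control and 25.7%, 11.5% and 14.9% in cKO replicates 1, 2 and 3. The groups do not overlap, though cKO replicate 2 exceeds control replicate 3 by little, and the difference of 7.06 points was 2.92 without cKO replicate 1. Ctrl took 8.80%, 9.11% and 9.31% in control and 6.87%, 6.89% and 5.90% in cKO, with no overlap. As a share of all 32 enzyme genes, the Ctrl difference turned from -2.52 to 0.111 points. Ctrc took 0.0659%, 0.0621% and 0.0697% in control and 0.0419%, 0.0365% and 0.0321% in cKO, also without overlap. For these 3 genes the exact 2-sided permutation p was 0.1, or 0.233 after Benjamini-Hochberg adjustment over the 7 genes, so that no difference passes in a design of this size. Ctrb1 was at 33.4% ± 2.28 in control and 32.6% ± 2.86 in cKO (SD, n = 3 each; exact permutation p = 0.7). Cela2a was at 32.1% ± 2.26 and 26.0% ± 4.83 (exact permutation p = 0.2; 1.43 points higher in cKO as a share of all 32 enzyme genes), and Cela1 at 13.8% ± 1.03 and 15.5% ± 1.39 (0.2).

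**Figure D4:**
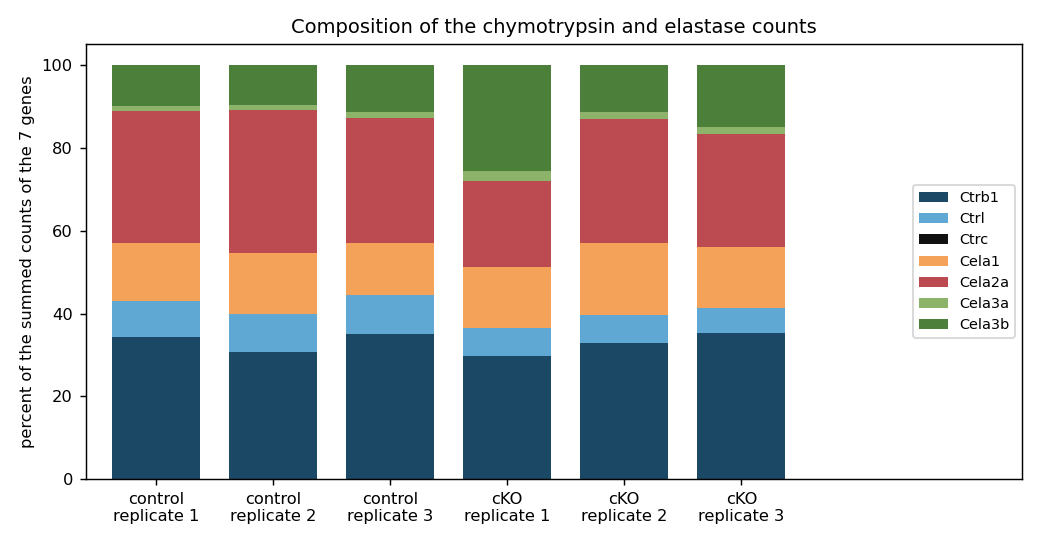
Percent of the summed counts of the 7 genes that each gene took, 1 bar per library. Cela3b (top segment) is between 9.66% and 11.4% in control and between 11.5% and 25.7% in cKO, while Ctrl narrows from about 9.07% to 6.55% on average; Ctrc is too small to see.

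Ratios of gene pairs are given as a description, without a test. Cela3b over Ctrl moved from 0.18 ± 0.10 to 1.33 ± 0.58 in log2 and Cela3b over Ctrc from 7.29 ± 0.06 to 8.81 ± 0.48 (SD, n = 3 each). Cela1 over Ctrl went from 0.60 ± 0.14 to 1.25 ± 0.13, and Ctrb1 over Ctrl from 1.88 ± 0.11 to 2.32 ± 0.24. Cela3b over Ctrb1 had log2 ratios of -1.79, -1.67 and -1.63 in control and -0.21, -1.51 and -1.24 in cKO. Cela2a over Ctrb1 and Cela2a over Ctrl overlapped between the groups. Cela3b over Cela3a was 7.80, 7.78 and 7.44 in control and 10.6, 7.93 and 8.07 in cKO. The main transcripts of this last pair are 89.8% identical and share a run of 116 identical bases within their last 300, so reads could be assigned to the wrong copy and their division is uncertain. No other pair of main transcripts shared more than 27 bases in a row there.

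Cela2a has further neighbours that bear on its count. Its last exon (chromosome 4, 141814962 to 141815055, 94 bases) lies wholly within the last exon of Casp9, the gene of the initiator caspase 9, on the opposite strand. The same 94 bases are also the last exon of Ctrc-205, a transcript that GENCODE runs from Ctrc through the end of Cela2a on the same strand. Casp9 was counted at 628100, 706713 and 610892 in control and 127824, 470802 and 228374 in cKO replicates 1, 2 and 3. Per 100 counts of Cela2a that is 41.9, 44.9 and 47.3 in control and 62.8, 50.5 and 54.7 in cKO. Casp9 thus stood at levels of a digestive enzyme gene, and its log2 fold change of -3.60 ± 0.82 (SE; edgeR adjusted p = 0.00225) was close to that of Cela2a. The strand setting of the counting is not given in the sources used here, so reads of Cela2a and Casp9 cannot be told apart. With the Casp9 counts added, the log2 fold change of Cela2a was -3.76 ± 0.99 (edgeR adjusted p = 0.00619), and its share within the set was 40.6% ± 2.39 in control and 35.2% ± 4.91 in cKO. That is above Ctrb1, which then took 29.2% and 28.5%, so which gene ranks first depends on this division of reads. Cela1 then took 12.1% ± 0.854 and 13.6% ± 1.12 of the set without overlap between groups (SD, n = 3 each). Ctrc counts per 100 of Cela2a were 0.208, 0.180 and 0.233 in control and 0.203, 0.121 and 0.118 in cKO, and some of them could come from the shared exons.

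**Figure D5:**
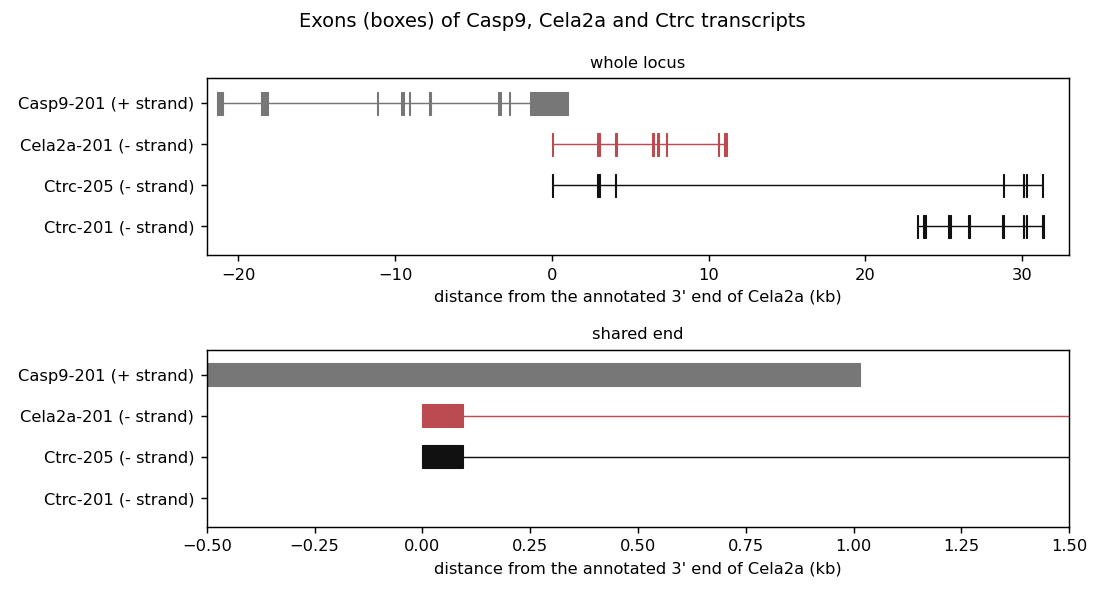
Exons (boxes) of the main transcripts of Casp9, Cela2a and Ctrc and of Ctrc-205 along the distance in kb from the annotated 3' end of Cela2a, for the whole locus and near that end. The 94-base last exon of Cela2a sits inside the last exon of Casp9 and coincides with that of Ctrc-205.

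Other genes of the digestive programme fell as well. For each list below, the shares over all tested genes are those given above: 20.7% lower and 24% higher on the TMM scale, 0.404% lower and 96.4% higher on library totals. Of 16 digestive enzyme genes of other classes (amylases, lipases, carboxypeptidases, ribonuclease), 16 fell and 0 rose, with a median log2 fold change of -4.49 on the TMM scale against -3.68 for the 7 genes and 0.10 for all tested genes. On library totals 12 of them were lower and 1 higher. Pla2g1b, a phospholipase gene, had a log2 fold change of -3.72 ± 0.43 on the TMM scale and Pnliprp2, a lipase-related gene, one of -2.34 ± 0.36. Against library totals they were -0.65 for Pla2g1b and 0.74 for Pnliprp2. As a share of the counts of 32 enzyme genes, the chymotrypsin and elastase genes took 24.0%, 22.6% and 23.9% in control and 32.5%, 35.2% and 35.2% in cKO replicates 1, 2 and 3. This proportion was alike in the cKO libraries although their enzyme totals differed.

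Of 9 other pancreatic serine protease genes, 5 fell and 0 rose (median -1.90), 2 rose when control replicate 1 was left out, and on library totals 2 were lower and 5 higher (all tested genes: 20.7% lower and 24% higher on TMM, 0.404% and 96.4% on totals). The trypsinogens Prss2 (-4.70 ± 0.87) and Try4 (-4.65 ± 0.84) fell further than any of the chymotrypsin and elastase genes, by their point estimates, and Try5 (-3.09 ± 0.72) and the kallikrein Klk1 (-2.29 ± 0.46) less far. These trypsinogen genes have near copies, so the split of reads among them is uncertain. Among 6 tested genes of zymogen activation and inhibition, 4 fell and 1 rose, against 1 lower and 4 higher on library totals. The log2 fold change was -2.70 ± 0.47 for the trypsin inhibitor gene Spink1 and -2.17 ± 0.18 for the elastase inhibitor gene Serpinb1a. Ctsb, the lysosomal protease cathepsin B that can activate trypsinogen, rose by 1.53 ± 0.20, from 110 ± 14.6 to 319.7 ± 74.1 CPM (SD, n = 3 each). Ctsl, the gene of cathepsin L, which inactivates trypsinogen, had a log2 fold change of -1.01 ± 0.17. Adjusted p-values of the genes named in these sentences ran from 6.94e-07 to 0.00273 on the TMM scale (edgeR). Log2 fold changes on library totals stayed negative for Prss2 (-1.78) and Try4 (-1.71). They were 2.25 for Ctsl, 1.06 for Serpinb1a, 0.74 for Klk1, 0.33 for Spink1 and 0.01 for Try5, so these falls rest on the TMM scale.

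Of 15 tested regulators of acinar enzyme genes, 11 fell and 2 rose (median -2.25), beside 20.7% lower and 24% higher among all tested genes. The PTF1 subunits Rbpjl (-3.98 ± 0.77) and Ptf1a (-2.25 ± 0.56) were among those that fell, with edgeR adjusted p of 0.0119 and 0.0203. The raw counts of Rbpjl were 1306, 1160 and 1148 in the control libraries and 196, 651 and 382 in the cKO libraries. Those of Ptf1a overlapped, at 310, 244 and 249 in control against 167, 428 and 355 in cKO, and its log2 fold change on library totals was 0.80, so its fall rests on the TMM scale. Xbp1, a driver of the secretory pathway (-1.89 ± 0.20), Foxa3 (-2.46 ± 0.26) and Onecut1 (-2.84 ± 0.62) had edgeR adjusted p-values among the smallest on the list (3.64e-06 to 0.00177). Raw counts of Onecut1 (13, 21 and 8 in control, 13, 7 and 17 in cKO) overlapped, so its fold change rests on the effective library sizes. Log2 fold changes on library totals were 1.31 for Xbp1, 0.69 for Foxa3 and 0.42 for Onecut1, so the falls of all of these rest on the TMM scale. On library totals, where 0.404% of all tested genes were lower and 96.4% higher, 1 of the 15 was lower and 6 higher. On the TMM scale, leaving out control replicate 3 took the 2 rises to 0.

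The genes whose profile over the 6 libraries was most like the mean of the 7 genes were Aqp12, a water channel gene of acinar cells (distance 0.138 in log2), Zg16, which encodes a zymogen granule lectin (0.179), C2cd4b (0.295), Casp9 (0.360), Clps, the colipase gene (0.377), and Gnmt (0.400). Likeness was the Euclidean distance between centred log2 CPM profiles, among 4243 genes of sufficient level. Of the 7 genes, Ctrb1 (0.326) and Cela1 (0.442) were nearest to their common mean and Cela3b (1.14) and Ctrc (0.982) farthest. The nearest single gene was Cpa1 for Ctrl, Cel for Cela2a, Try4 for Ctrc, Casp9 for Cela1, C2cd4b for Ctrb1, Arhgdig for Cela3a and Chst2 for Cela3b. These distances carry both the group difference and the order of the cKO libraries.

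Markers of several other cell types were higher where these genes were lower. Acinar markers fell in 10 of 10 cases, with a summed level of 741619 to 850971 CPM in control and 11004.5 to 67711 CPM in cKO. Fibroblast and stellate cell markers rose in 9 of 10 (728 to 823 CPM in control, 3593 to 5123 in cKO), among them the collagens Col1a2 and Col3a1. Monocyte and macrophage markers rose in 10 of 10 (106 to 134 and 327 to 651 CPM), and neutrophil markers in 9 of 9 (8.77 to 12.9 and 39.8 to 71.5 CPM), of which Ltf was at 0 in all controls. Of the neutrophil markers, all but S100a8 and S100a9 passed the filter on low counts through cKO only. In cKO replicate 2, where the 7 genes were highest, the sums of the fibroblast, macrophage and neutrophil lists were the lowest of the cKO libraries. Duct markers fell in 4 and rose in 3 of 9 tested, endothelial markers fell in 2 and rose in 2 of 8, islet markers fell in 2 of 8 and rose in 0, and mesothelial markers rose in 5 and fell in 1 of 6. Lymphocyte markers rose in 1 of 5 and fell in 0, and mast cell markers rose in 2 and fell in 1 of 5. All rising markers of the endothelial, lymphocyte and mast cell lists also passed the filter through cKO only. So did some rising markers of the fibroblast, macrophage, duct and mesothelial lists, and the calls of such markers carry no weight. The duct markers went both ways, and the endothelial and islet counts rest on 8 tested genes each. The background was 20.7% lower and 24% higher, and nothing is read from these 3 lists. On library totals, where 0.404% of all tested genes were lower, 6 acinar markers were lower and 0 higher. The ribosomal precursor Rn45s took 1.85% to 2.39% of control and 3.41% to 6.61% of cKO counts. The part of these differences in the fall of the enzyme genes was not tested.

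Proteases of the chymotrypsin fold that leukocytes make were rare in all libraries. Of 13 listed, 7 passed the filter on low counts, 6 of them (Prss57 aside) only through cKO, where they are high, so their calls carry no weight and raw counts are given. For Elane, the neutrophil elastase gene, the control counts were 0, 0 and 1 and the cKO counts 25, 24 and 76. Prtn3, proteinase 3 of neutrophils, stood at 1, 2 and 0 against 39, 23 and 135, and Cma1, the mast cell chymase gene, at 3, 5 and 0 against 167, 64 and 146. Gzma, granzyme A of killer lymphocytes, stood at 3, 6 and 0 against 263, 99 and 178. Gzmk, granzyme K, which did not pass the filter, went the other way, at 9, 9 and 6 against 0, 1 and 0. Prss57, a neutrophil protease gene, fell (-0.81 ± 0.25; edgeR adjusted p = 0.0154), a call lost without control replicate 3, cKO replicate 1 or cKO replicate 3. The summed level of the 13 genes was 16.2 to 23.4 CPM in control and 16.5 to 20.4 in cKO. Prss57 alone had a mean of 16.6 CPM in control and 9.48 CPM in cKO. The sum therefore does not show how the rarer genes moved.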

How the data were processed

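RNA profiles of 3 control and 3 cKO libraries were analysed from raw counts of 3' tag reads per gene symbol, which the authors deposited without normalization. The submitters' processing notes list mm10, GRCm38, Bowtie2 and edgeR, without version or role. Counting tool, annotation, strand and handling of multi-mapping reads were not given in the sources used here. PCR copies are included, and intervals cover counting error only.

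Genes were tested in edgeR 4.0.16 (R 4.3.3; glmQLFit with robust estimation, glmQLFTest) after filterByExpr (minimum count 10, minimum total 15) with TMM factors, and 7 of 7 members passed the filter through their levels in both groups. Calls used a Benjamini-Hochberg adjusted p of 0.05 over all tested genes. The SE is the log2 fold change divided by the square root of F. Log2 CPM for likeness used a prior count of 2 and a mean of at least 3. Shares were compared with exact 2-sided permutation tests (scipy 1.17.1). The fit was tested on simulated data with equal numbers of rises and falls, so that test does not bear on the choice of scale. Alternatives were DESeq2 1.42.0, other scalings and filters, a replicate block and leaving out each library. No 2 replicates of a group were alike within sampling noise (chi-square per degree of freedom 14.6 to 370). Annotation came from GENCODE M21 and RefSeq (GRCm38).

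The members, the gene lists and the rules were chosen with earlier results of these data known. All 7 members, the (at most 4) genes of lowest p in each pathway list, the most abundant markers and the 6 genes nearest in profile are named; Casp9, Rn45s, Rbpjl, Ptf1a, Prss57, Gzmk and Ltf were named after their values were seen. Values of some named list members are left out here.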

Additional observations from a re-analysis of the deposited data

How the results depend on the processing

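All 7 genes were lower in every setting tried, and their calls held in 12 of 12 planned settings other than library totals, with fold changes between -5.61 and -1.96 and adjusted p-values of at most 0.0329. These settings were DESeq2, RLE factors, totals without enzymes, Rn45s and Casp9, no filter, at least 10 CPM in 3 libraries, the replicate block and leaving out each library. On library totals 3 of 7 were called, and the fold changes of those that lost the call were -0.50 (Cela1), -0.34 (Cela3a), -0.16 (Cela3b) and -0.74 (Ctrb1). Calls over all genes were 2716 lower and 3153 higher on the TMM scale. They were 53 and 12653 on library totals, 515 and 9008 on totals without enzymes, Rn45s and Casp9, and 1767 and 1846 with at least 10 CPM in 3 libraries. Leaving out 1 library gave 2077 to 2829 lower and 2388 to 3411 higher. The difference in summed share, -7.34 points, was -10.8 to -4.90 without 1 library. With the replicate block 7 genes were lower (2505 lower and 2884 higher over all genes). Same-numbered libraries did not deviate together (correlations -0.03, -0.01 and 0.01), and not every library correlated best with its own number. Within the set, leaving out cKO replicate 1 took the Cela3b difference from 7.06 to 2.92 points, that of Cela2a from -6.08 to -3.43 and that of Cela3a from 0.565 to 0.305, and leaving out cKO replicate 2 took that of Cela1 from 1.76 to 0.958. The Ctrb1 difference of -0.759 points ranged from -2.13 to 0.723 when 1 library was left out and became 0.0961 without control replicate 3 and 0.723 without cKO replicate 1. As shares of all enzyme counts in place of the set, differences were 3.35 points for Ctrb1, 1.43 for Cela2a and 0.111 for Ctrl, which reverses their sign. The 7 genes together took a mean of 23.5% of the enzyme counts in control and 34.3% in cKO. A share of the set and a share of all enzymes can therefore move in opposite directions. Why the share of the set among the enzymes was larger in cKO was not tested. Adding Casp9 to Cela2a was chosen after seeing the data.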

Other observations

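Genes of the elastic fibre, the substrate from which elastases take their name, moved opposite to the pancreatic elastases. Of 5 tested genes 5 were called higher on the TMM scale and 0 lower (median 2.16), where 24% of all tested genes rose. Fbln5 passed the filter on low counts through cKO only, so its call carries no weight. For Eln, the elastin gene, the control counts were 82, 63 and 85 and the cKO counts 2325, 1381 and 2935, a rise of 2.16 ± 0.19 in log2. Fbn1, fibrillin 1, rose by 2.92 ± 0.17, Fbln5, which helps assemble elastin, by 2.51 ± 0.32, and Lox, the oxidase that cross-links elastin and collagen, by 1.82 ± 0.28 (edgeR adjusted p from 1.54e-07 to 0.000137).

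Elastin-cutting enzymes outside the serine proteases were measured as well. Of 4 tested genes 2 were called higher (Ctss and Ctsk) and 0 lower, beside 24% higher and 20.7% lower among all tested genes. The gene of the cysteine protease cathepsin S (Ctss, 2.45 ± 0.28) rose, with an edgeR adjusted p of 2.22e-05. Ctsk, the gene of the cysteine protease cathepsin K, was counted 6, 8 and 13 times in control and 407, 191 and 452 times in cKO. The macrophage metalloelastase gene Mmp12 (0.38 ± 0.25) and Mmp9 (0.45 ± 0.51) did not pass (0.229 and 0.500). Ctsk (6 to 13 control counts) and Mmp9 (5 to 29) passed the filter on low counts through cKO only, so their outcomes carry no weight. Fibroblast and macrophage markers rose in the same libraries, and their part in these rises was not tested.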
